A study of Homo sapiens with 10 samples.

Results

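The transcriptome of untreated SH-SY5Y cells was described from 5 arrays of a series of 10. SH-SY5Y is an established line that was cloned from a human neuroblastoma, a childhood tumour of the sympathetic nervous system, and it is widely used as a cell model of catecholamine neurons. The study set untreated cells (source name ctrl) beside cells given paraquat, a redox-cycling herbicide, and only the arrays of untreated cells, numbered 7, 11, 13, 17 and 19 in their titles, were used here. All 5 hold total RNA of the same line with no treatment named in the labels, and no passage, medium or differentiation state is given there. Separate cultures are not stated in the labels, so every SD below is the spread of these 5 arrays and could be technical alone.

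RNA was depleted of ribosomal RNA, labelled with biotin and hybridised to Affymetrix Exon 1.0 ST arrays, which carry probes for the exons of each gene. The deposited table gives a log2 value for each of 22011 transcript clusters, the probe sets of a locus. Of these rows 14432 are annotated to exactly 1 gene symbol, and they stand for 14232 genes. Each gene is described by its mean level ± SD over the 5 arrays (log2 units, n = 5 unless said otherwise) and by its percentile, which is the share of the 14232 genes with a lower mean. Array signals also depend on how well each probe binds its target. A level or percentile therefore places a gene within this table, and it does not measure how many transcripts of that gene there are relative to another gene. No test between groups was made, because all arrays belong to 1 group.

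Sympathetic neurons and the chromaffin cells of the adrenal medulla arise from the neural crest under a small set of transcription factors, among them PHOX2A, HAND2, GATA2, GATA3 and ISL1. The mature cells make noradrenaline from tyrosine through tyrosine hydroxylase (TH), aromatic amino acid decarboxylase (DDC) and dopamine beta-hydroxylase (DBH), load it into vesicles through a vesicular monoamine transporter, and take it back up through the noradrenaline transporter. Neuroblastoma cells retain much of this programme while they divide, and some neuroblastoma lines also hold or can give rise to cells of a mesenchymal type.

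The mean levels of the 14232 genes ran from 1.59 to 13.83, with a median of 7.11 and quartiles at 4.97 and 8.48. The distribution was broad, with a second, lower hump of dim genes. No detection calls were used, so a reference level was taken from 59 measured genes of other tissues, such as liver, skin, muscle and retina. Their median was 4.27, and their 95th percentile, 6.54, served as the reference. Of all genes, 8229 (57.8%) lay above it, and 3558 (25%) lie by definition in the top 25%, above 8.48. A level below the reference does not show that a transcript is missing. KRT14 (7.76 ± 0.30), a keratin of basal skin cells, ACTA1 (6.97 ± 0.10), the actin of skeletal muscle, and TNNI3 (6.91 ± 0.30), a heart troponin, were the 3 genes of that list above it.

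**Figure D1:**
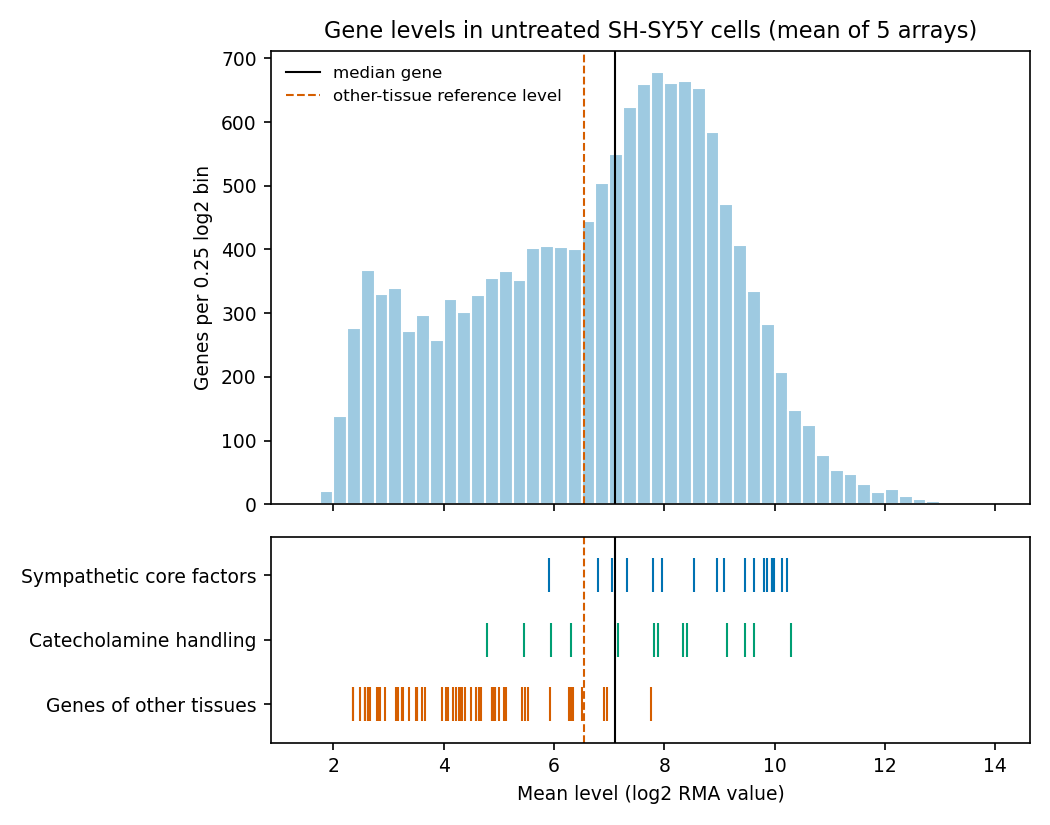
Histogram of the mean log2 level of 14232 genes over the 5 untreated arrays (top; x axis, log2 RMA value; y axis, genes per 0.25 log2 bin), with the members of 3 gene lists as ticks below on the same x axis. The solid line marks the median gene (7.11) and the dashed line the other-tissue reference level (6.54). Above the dashed line lie 18 of 19 sympathetic core factors and 9 of 13 catecholamine genes, against 57.8% of all genes.

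Gene families separated on this scale, on which 57.8% of all genes lay above the reference. Olfactory receptors, which sense odorants in the nose, had 225 measured genes with a median of 2.95, a highest mean of 5.63 and 0 genes above the reference. Potassium channels had 16 of 84 genes above it, collagens 15 of 39, solute carriers 155 of 312, and ZNF zinc finger genes 221 of 311. Among protein-coding genes 8168 of 13733 lay above the reference (59.5%), against 28 of 316 long non-coding RNAs (8.86%). Histone genes lay high, with a median of 9.10 and 44 of 60 above the reference, but near-identical members can share probes and the level of a single histone gene is uncertain.

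The level of a gene went with the CpG content of its promoter, a feature that played no part in choosing the genes. Promoters are the stretches just before the transcription start, and those rich in CpG dinucleotides are typical of broadly used genes. RefSeq promoters (assembly GRCh38.p14) matched 11385 of the genes by gene identifier, and the 250 bases before each start were searched. The sequences below show both ends of the CpG range, and all CpG dinucleotides are in capitals. RET, a receptor tyrosine kinase of neural crest cells, has 33 (chr10:43076819-43077068, plus strand). DDC, the decarboxylase of catecholamine synthesis, has 2 (chr7:50565406-50565655, minus strand). ALB, the serum albumin gene of liver, has 3 (chr4:73404037-73404286, plus strand).
RET: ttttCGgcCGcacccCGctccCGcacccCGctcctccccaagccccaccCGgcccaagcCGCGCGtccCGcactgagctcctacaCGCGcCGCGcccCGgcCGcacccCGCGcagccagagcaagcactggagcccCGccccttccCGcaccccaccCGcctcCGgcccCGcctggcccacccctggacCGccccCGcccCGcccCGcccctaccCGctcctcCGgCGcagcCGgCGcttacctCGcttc
DDC: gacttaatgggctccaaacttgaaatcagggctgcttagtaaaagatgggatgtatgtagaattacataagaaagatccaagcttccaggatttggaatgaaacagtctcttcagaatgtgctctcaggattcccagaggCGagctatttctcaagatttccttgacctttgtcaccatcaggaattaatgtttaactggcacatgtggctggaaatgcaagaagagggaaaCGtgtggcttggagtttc
ALB: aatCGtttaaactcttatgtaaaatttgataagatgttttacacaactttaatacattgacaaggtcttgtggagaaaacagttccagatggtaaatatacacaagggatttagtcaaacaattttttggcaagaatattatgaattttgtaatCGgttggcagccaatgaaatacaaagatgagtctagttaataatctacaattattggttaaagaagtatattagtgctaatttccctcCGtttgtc

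Of 1277 genes with 0 to 2 CpG dinucleotides in this window, 13.2% lay above the reference, with a median level of 3.52. Of 3120 genes with 26 to 59, 79.1% did, with a median of 7.93. The share was larger in each bin than in the one before, and it was already 75.1% among the 1735 genes with 16 to 20. Across the 11385 genes, Spearman's rho of level and CpG count was 0.44 and Pearson's r 0.45. This is a description across genes, which are not independent replicates. RET (11.57 ± 0.22, percentile 99.3) and ALB (2.67 ± 0.10, percentile 4.89) lie on the same side of the reference as most genes of their bins, though outside the quartiles of those bins, RET above 8.87 and ALB below 3.61. DDC lies on the other side, with a level of 9.62 ± 0.23 (percentile 91.4) in a bin whose upper quartile was 5.09.

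**Figure D2:**
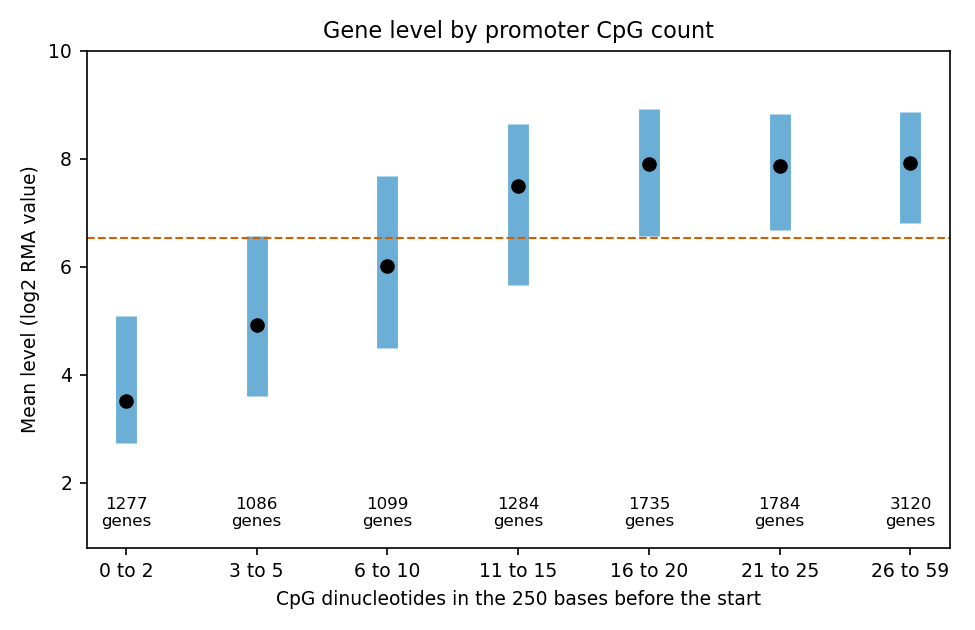
Mean log2 level (y axis) of 11385 genes by the number of CpG dinucleotides in the 250 bases before the start (x axis, 7 bins). Dots are medians, bars run from the lower to the upper quartile, the number of genes stands under each bin, and the dashed line is the reference level. The median climbs from 3.52 in the first bin to 7.50 at 11 to 15 CpG dinucleotides and lies between 7.86 and 7.93 in the last 2 bins.

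The transcription factors of the sympathetic lineage lay high in untreated cells. Of 22 listed factors 19 had a row of their own, 18 of these lay above the reference (57.8% of all genes did), and 13 lay in the top 25%. The median of the list was 9.46, at percentile 89.8. GATA3, a zinc finger factor of sympathetic neurons and 1 of the 4 markers of the cell type (transcript cluster 3234277), read 9.68, 9.999, 10.15, 9.82 and 10.16 on arrays 7, 11, 13, 17 and 19, in that order, as in all such series below. All 5 arrays lay above the upper quartile of genes, with arrays 13 and 19 the higher ones and array 7 the lowest. Its mean was 9.96 ± 0.21, at percentile 94.3. GATA2, the related factor (2694314), read 9.95, 9.78, 10.38, 10.14 and 10.40, a mean of 10.13 ± 0.27. PHOX2A, the homeodomain factor of noradrenergic neurons (3381038), read 9.63, 9.50, 10.47, 10.16 and 10.09. Arrays 7 and 11 were low for PHOX2A and array 13 was high, and the mean was 9.97 ± 0.40. ISL1, a LIM homeodomain factor (2808931), had 9.95 ± 0.21.

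HAND2, the second marker, has no row of its own. The row annotated to HAND2 together with its antisense neighbour HAND2-AS1 read 10.85, 10.80, 10.85, 10.78 and 10.76. No array stood apart there (10.81 ± 0.04). A further row annotated to HAND2-AS1 alone had 11.07 ± 0.21. How these 2 rows divide sense and antisense signal was not tested. HAND1, a basic helix-loop-helix factor related to HAND2, has a row of its own with 9.07, 8.33, 9.13, 9.46 and 9.39. Array 11 was the lowest and arrays 17 and 19 were the highest (mean 9.08 ± 0.45).

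TFAP2B, an AP-2 factor of the neural crest, read 10.26 on array 7, 9.53 on array 11, and 10.51, 10.46 and 10.37 on the rest. Array 11 again stood low, and the mean was 10.23 ± 0.40. Further factors in the top 25% were EYA1, a transcriptional coactivator and phosphatase (9.997 ± 0.10), INSM2 (9.85 ± 0.28), SOX4 (9.81 ± 0.33), TBX2 (9.63 ± 0.17), KLF7 (9.46 ± 0.30), SOX11 (8.95 ± 0.32) and TBX20 (8.55 ± 0.38). SOX4 and SOX11 are factors of immature neurons. ZNF536, a zinc finger repressor of neuronal differentiation (7.96 ± 0.30), and INSM1, a zinc finger factor of neuroendocrine cells (6.798 ± 0.16), lay above the reference and below the top 25%. MYCN, the oncogene amplified in many high-risk neuroblastomas, had 7.79 ± 0.12 (percentile 61.9), and its other row read close to that, 7.70 ± 0.15. LMO3 (7.33 ± 0.12) and LMO1 (7.06 ± 0.11), LIM-only cofactors with a role in neuroblastoma, lay near the median gene, and SIX3, a forebrain factor (5.90 ± 0.26), was the only measured member below the reference.

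**Figure D3:**
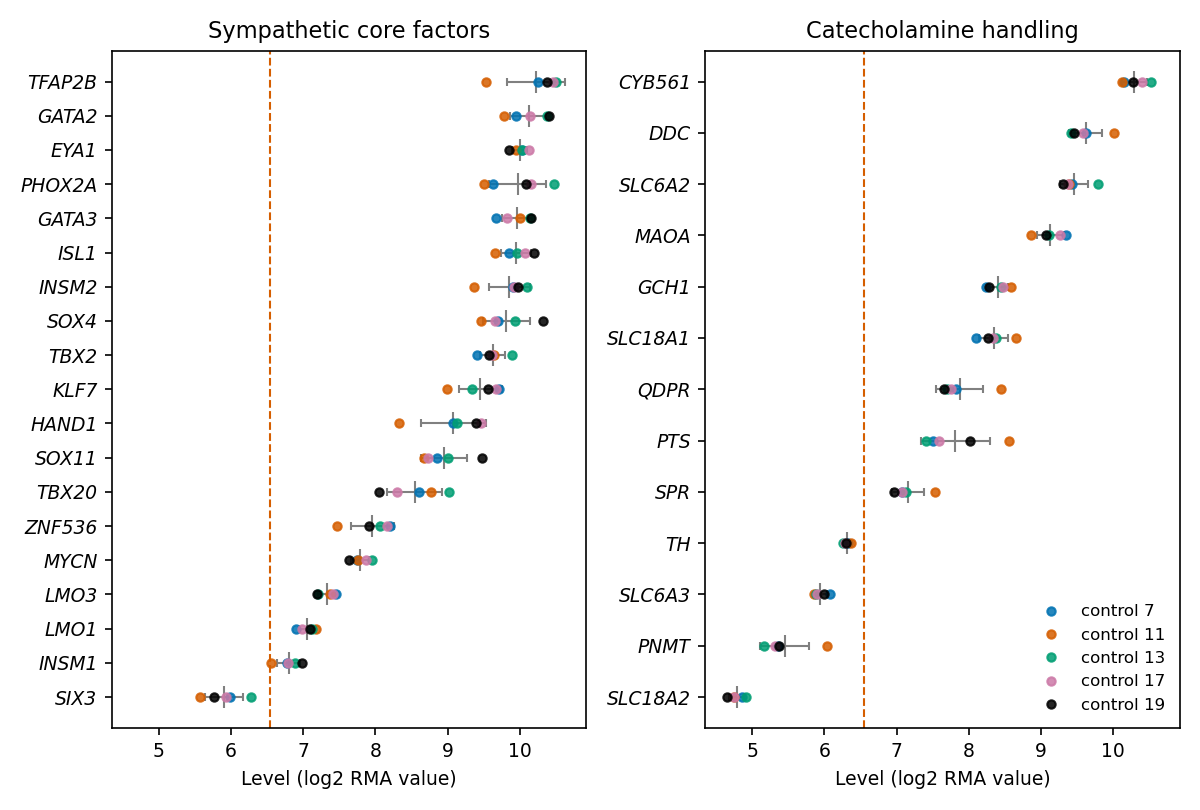
Log2 level on each of the 5 untreated arrays (coloured dots; x axis, log2 RMA value) for 19 sympathetic core factors (left) and 13 genes of catecholamine handling (right), ordered by mean. Grey marks are the mean ± SD (n = 5) and the dashed line is the reference level of 6.54, with SIX3 below it on the left and TH, SLC6A3, PNMT and SLC18A2 on the right. Control 11 is the lowest array for TFAP2B, HAND1 and PHOX2A.

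Genes that make, store and remove catecholamines spread over a wider range of levels. Of 16 listed genes 13 had a row with 1 symbol, 9 lay above the reference and 4 in the top 25%, and the median was 7.88 (percentile 63.8). These shares, 69.2% and 30.8%, are near those of all genes, 57.8% and 25%. TH, the rate-limiting enzyme of catecholamine synthesis and the third marker, read 6.32, 6.37, 6.26, 6.29 and 6.30. All 5 arrays lay below the reference of 6.54, and the mean of 6.31 ± 0.04 was at percentile 39.7, so this marker does not place the cells among catecholamine cells on this scale. It lies just above the lower reference of 6.28 that the 90th percentile of the other-tissue genes gives. DBH, the fourth marker, shares its only row with the ribosomal protein gene RPL7A, its own antisense gene and 4 small nucleolar RNAs, and that row read 10.89, 10.43, 11.50, 11.46 and 11.72. No level can be given to DBH from it. Of the 4 markers, then, GATA3 was high on a row of its own, HAND2 was high on a shared row, TH was below the reference, and DBH could not be read.

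DDC, the second enzyme of the pathway, read 9.62, 10.01, 9.42, 9.59 and 9.46. Array 11 was the highest and array 13 the lowest, and none came near the reference. GCH1, which makes the tetrahydrobiopterin cofactor of TH, had 8.40 ± 0.14, and PTS, SPR and QDPR of the same cofactor pathway had 7.81 ± 0.48, 7.16 ± 0.22 and 7.88 ± 0.33. PTS varied most of these, with 7.50, 8.56, 7.41, 7.58 and 8.01. CYB561, the cytochrome that supplies electrons to DBH inside the vesicle, had 10.29 ± 0.17 (percentile 96.3). PNMT, which converts noradrenaline to adrenaline, lay below the reference at 5.45 ± 0.34.

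Both vesicular monoamine transporters had rows of their own, on opposite sides of the reference. SLC18A1, the form of chromaffin cells, had 8.35 ± 0.20 (percentile 72.6). SLC18A2, the form of monoamine neurons, read 4.86, 4.74, 4.92, 4.75 and 4.65, and every array lay below the lower quartile of genes. At the plasma membrane, SLC6A2, the noradrenaline transporter, read 9.44, 9.39, 9.79, 9.38 and 9.30. Array 13 was high and the other 4 lay close together, with a mean of 9.46 ± 0.19 at percentile 89.8. SLC6A3, the dopamine transporter, lay below the reference at 5.94 ± 0.09 (percentile 35.3). MAOA, the mitochondrial oxidase of noradrenaline and serotonin, had 9.13 ± 0.19, and MAOB shares its row with NAA50 and was not read.

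Granins are acidic proteins that help form dense-core vesicles. Of 12 measured genes for granins and prohormone processing 9 lay above the reference, 5 of them in the top 25% (median 8.32). These shares are 75% and 41.7%, against 57.8% and 25% of all genes. GAL, the neuropeptide galanin, read 10.36, 11.26, 10.59, 10.61 and 10.60. Array 11 stood above the others, and the mean was 10.68 ± 0.34 (percentile 97.7). CHGB, chromogranin B, had 9.38 ± 0.24, CHGA, chromogranin A, had 8.96 ± 0.27, and VGF, a precursor of several neuropeptides, had 8.93 ± 0.28. SCG2 and SCG3, secretogranins of the same vesicles, lay below the reference at 5.70 ± 0.62 and 5.02 ± 0.28. The array list of SCG2 was 5.63, 6.76, 5.49, 5.13 and 5.50, with array 11 above the reference and the others below it.

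CHGA, VGF and SLC18A2 share a feature of their promoters, the full cAMP response element TGACGTCA, a palindrome that reads the same on both strands. It is the site of the CREB family of factors. Their 100 bases before the start are printed to show the element, in capitals, at a similar distance from the start in a gene far above the reference and in one below it. It begins 54 bases before the start in CHGA (chr14:92923050-92923149, plus strand), 79 in VGF (chr7:101165570-101165669, minus strand) and 48 in SLC18A2 (chr10:117241014-117241113, plus strand).
CHGA: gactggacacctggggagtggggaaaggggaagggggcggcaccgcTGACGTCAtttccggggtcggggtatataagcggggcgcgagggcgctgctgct
VGF: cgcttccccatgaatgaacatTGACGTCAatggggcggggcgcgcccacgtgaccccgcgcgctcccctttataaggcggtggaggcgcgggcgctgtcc
SLC18A2: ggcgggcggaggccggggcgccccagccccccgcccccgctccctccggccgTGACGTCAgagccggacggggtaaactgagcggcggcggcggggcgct

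The element was found in the 250 bases before the start of 282 of the 11385 matched genes (2.48%), and in 482 of the 27305 promoters of the RefSeq table (1.77%). Of the 282 genes, 221 lay above the reference (78.4%), against 60.4% of all matched genes. Their promoters also had more CpG dinucleotides, a median of 23 against 18, and the part of CpG content in that share was not tested. CHGA and VGF belong to the larger share. SLC18A2, with the element and 33 CpG dinucleotides, does not, at a level of 4.79. A match in this window is a sequence description and does not show that a factor was bound.

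Genes of the neuronal cytoskeleton and of neuronal RNA binding were high. Of 21 measured, 17 lay above the reference and 12 in the top 25% (median 8.80). UCHL1, a neuronal ubiquitin hydrolase, had 12.48 ± 0.07, STMN2, a microtubule regulator of growing axons, 12.44 ± 0.13, DPYSL3, a growth cone protein, 11.82 ± 0.08, and MAP1B, a microtubule-associated protein of young neurons, 10.78 ± 0.27. Each of these 4 lay at percentile 98.0 or above. NEFM, the medium neurofilament chain (6.13 ± 0.26), and STMN4 (5.38 ± 0.36) were the lowest members of the list. Synaptic vesicle genes were less uniform, with 10 of 18 above the reference and 4 in the top 25% (median 6.81). These shares are near those of all genes (57.8% and 25%), so that list as a whole did not stand out in level. The synaptotagmins SYT4 (12.07 ± 0.18), SYT11 (10.76 ± 0.19) and SYT1 (9.19 ± 0.08) were far above it, whereas AMPH, amphiphysin (3.28 ± 0.09), and SV2B, a vesicle glycoprotein (3.20 ± 0.10), lay in the lowest 25%.

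Markers of other transmitters and other cell types lay mostly below the reference, a placing that holds for some of them only at this reference. With the lower reference of 4.80 from olfactory receptors, 7 of 17 genes of other transmitters, 7 of 10 midbrain markers and 6 of 11 glial markers lay above it. So did 76.7% of all genes. Of 17 measured genes for acetylcholine, serotonin, GABA, glutamate, glycine and histamine, 3 lay above the main reference of 6.54 (57.8% of all genes did). This list had 0 genes in the top 25% and a median of 4.13, at percentile 17.5. FEV, a factor of serotonin neurons, had 7.71 ± 0.26, SLC18A3, the vesicular acetylcholine transporter, 7.48 ± 0.18, and SLC6A9, a glycine transporter, 7.30 ± 0.24. TPH1, the serotonin-making enzyme of peripheral tissues (2.46 ± 0.25), and SLC17A6, a vesicular glutamate transporter (2.60 ± 0.11), were the lowest. All 10 measured factors and markers of midbrain dopamine neurons lay below the reference, PITX3 (6.33 ± 0.13), FOXA2 (6.20 ± 0.19), EN1 (6.08 ± 0.17) and LMX1B (6.04 ± 0.09) nearest to it. All 11 Schwann cell and glial markers did so too, with OLIG2 (5.88 ± 0.14) the highest and CDH19 (2.50 ± 0.06), a cadherin of Schwann cell precursors, the lowest.

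Leukocyte markers had 2 of 13 genes above the reference, against 57.8% of all genes. These were CD68 (7.74 ± 0.23), a lysosomal protein of macrophages, and NKG7 (6.58 ± 0.10). PTPRC, the pan-leukocyte surface protein CD45, was at 2.67 ± 0.08. Endothelial and epithelial markers had 3 of 13 above it, KRT8, a keratin of simple epithelia (10.41 ± 0.15), KRT14 and CLDN5 (7.00 ± 0.10), with PECAM1 of endothelium at 3.55 ± 0.14 and EPCAM of epithelium at 3.42 ± 0.15.

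Of 24 measured genes of the mesenchymal neuroblastoma list 12 lay above the reference (57.8% of all genes did), 7 in the top 25% and 5 in the lowest 25% (median 6.42). These shares are near those of all genes, so the list as a whole did not stand out in level. VIM, the intermediate filament of mesenchymal cells, had 11.27 ± 0.30, COL3A1, a fibrillar collagen, 10.34 ± 0.35, TWIST1, a neural crest and mesenchymal factor, 10.24 ± 0.19, and FN1, fibronectin, 9.62 ± 0.17. FN1 has another row at 6.62 ± 0.58, so its level depends on the row. PRRX1, a homeodomain factor that defines the mesenchymal state, was at 3.95 ± 0.18, and IFI16, an interferon-inducible DNA sensor, at 2.86 ± 0.08. In RNA of a whole culture, fewer cells of a type and less RNA per cell cannot be told apart.

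HOX genes, which specify position along the body axis, showed an uneven pattern. Of 22 measured genes 7 lay above the reference (31.8%, against 57.8% of all genes). HOXD10 (8.12 ± 0.13), HOXD9 (7.70 ± 0.05), HOXD13 (7.28 ± 0.26) and HOXD8 (7.27 ± 0.35) had the highest means. HOXB6 (3.45 ± 0.11) and HOXB13 (3.10 ± 0.34) had the lowest. The HOXD cluster was not uniform, since HOXD12 (3.99 ± 0.47) lay in the lowest 25%.

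**Figure D4:**
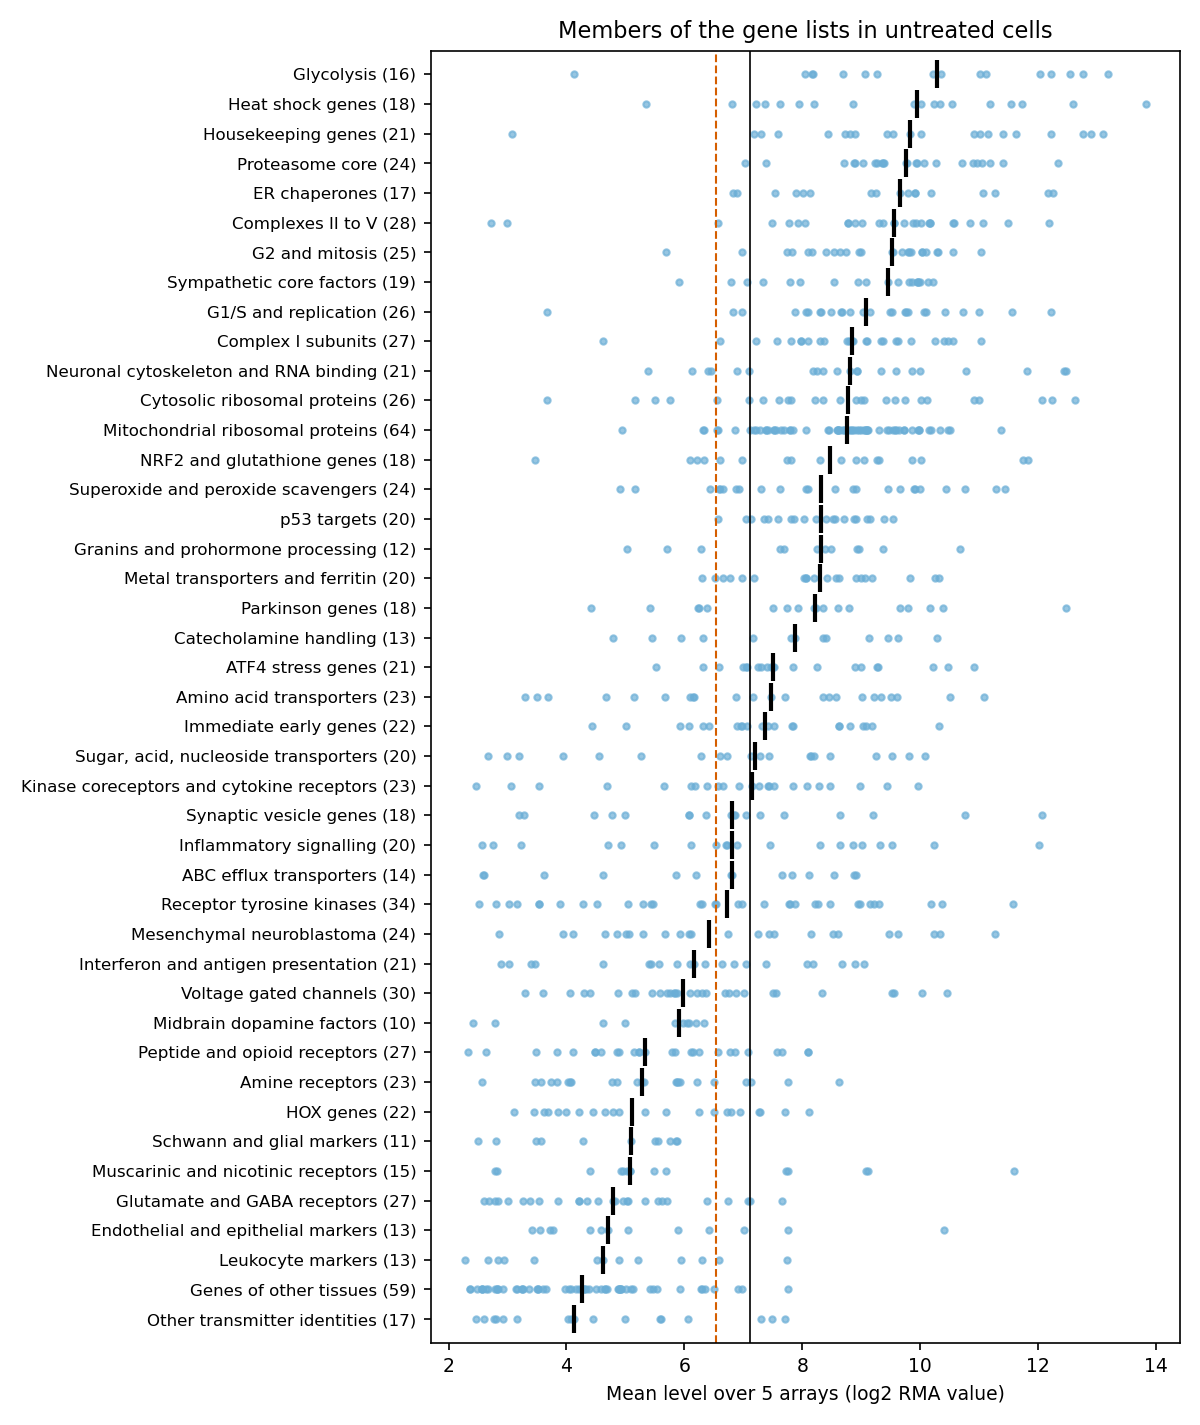
Mean log2 level (x axis) of each measured member (dots) of 43 gene lists in untreated cells, with the number of measured members in brackets and the list median as a black tick. The solid line is the median gene (7.11) and the dashed line the reference level (6.54). Glycolysis (median 10.28) stands at the top and genes of other transmitters (4.13) at the bottom, and most lists span several log2 units.

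Receptor tyrosine kinases are the receptors of many growth factors. Of 34 measured 17 lay above the reference and 8 in the top 25% (median 6.72), shares near those of all genes (57.8% and 25%). RET, the receptor of the GDNF family whose CpG-rich promoter is printed above, read 11.51, 11.22, 11.72, 11.68 and 11.74. Array 11 was the lowest, and RET held rank 95 of the 14232 genes. IGF1R, the receptor of insulin-like growth factors, had 10.38 ± 0.34, DDR2, a collagen receptor, 10.18 ± 0.22, and EGFR, the epidermal growth factor receptor, 9.30 ± 0.23. FLT3, a receptor of blood progenitors (2.51 ± 0.11), and TEK, an endothelial receptor (2.81 ± 0.03), were the lowest. ALK, a receptor mutated in some neuroblastomas, had 7.79 ± 0.32, and NTRK2, the receptor of brain-derived neurotrophic factor, 7.77 ± 0.33. Both were lowest on array 11, at 7.22 each.

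RET signals together with a GFRA coreceptor. GFRA4 (7.41 ± 0.08) and GFRA2 (6.65 ± 0.18) lay above the reference, and GFRA1 (6.18 ± 0.26) and GFRA3 (4.69 ± 0.20) below it. Of 23 measured coreceptors and cytokine receptors 15 lay above the reference (65.2%, against 57.8% of all genes) and 3 in the top 25%. These were TGFBR1, a receptor of transforming growth factor beta (9.97 ± 0.26), IL6ST, the shared signal chain of the interleukin-6 family (9.43 ± 0.24), and CNTFR, the receptor of ciliary neurotrophic factor (8.97 ± 0.28). IL1R1, the interleukin-1 receptor, was at 2.46 ± 0.11.

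Acetylcholine acts on autonomic ganglia through nicotinic receptors built from alpha3, alpha5 and beta4 subunits, whose genes lie side by side in the genome. CHRNA3 read 11.57 on array 7, 11.02 on array 11, and 11.77, 11.81 and 11.75 on the rest. Array 11 was again the lowest, and the mean of 11.58 ± 0.33 held rank 93. CHRNB4 had 9.11 ± 0.40 and CHRNA5 9.08 ± 0.30, and these 3 were the list's only members in the top 25%. CHRM3, a muscarinic receptor, had 7.76 ± 0.43. The remaining nicotinic and muscarinic genes fell to 2.78 ± 0.15 for CHRNB3. In the whole list 5 of 15 lay above the reference (33.3%, against 57.8% of all genes).

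Few other transmitter receptors were above the reference, where 57.8% of all genes lay. Of 23 amine receptors 4 lay above it, ADRA2A (8.63 ± 0.28) and ADRA2C (7.76 ± 0.12), which are inhibitory adrenoceptors, DRD4 (7.13 ± 0.14), a dopamine receptor, and HTR2B, a serotonin receptor. HTR2B read 7.08, 8.31, 6.95, 6.64 and 6.26, and array 19 lay below the reference while array 11 was the highest. Glutamate and GABA receptors had 4 of 27 above it, GABBR1, a metabotropic GABA receptor, being highest at 7.66 ± 0.20. Peptide and opioid receptors had 8 of 27, among them CCKAR, a cholecystokinin receptor (8.11 ± 0.18), OPRD1, the delta opioid receptor (8.10 ± 0.36), and the bradykinin receptors BDKRB1 (7.66 ± 0.31) and BDKRB2 (7.57 ± 0.15). NPY1R, a receptor of neuropeptide Y, was at 2.34 ± 0.14. Among the voltage-gated channels 11 of 30 lay above the reference, led by the calcium channel subunits CACNA2D2 (10.45 ± 0.43), CACNA2D1 (10.03 ± 0.12) and CACNB3 (9.56 ± 0.21) and the sodium channel SCN9A (9.53 ± 0.21), which is typical of sympathetic and sensory neurons.

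Transporters of nutrients and metals were measured on 4 lists. Amino acid transporters had 14 of 23 genes above the reference (60.9%) and 8 in the top 25% (34.8%), with a median of 7.46. The shares of all genes were 57.8% and 25%. SLC38A2, a sodium-coupled importer of small neutral amino acids, had 11.09 ± 0.11 and SLC38A1 of the same family 10.50 ± 0.13. SLC7A1, the cationic amino acid transporter, had 9.60 ± 0.44, and SLC3A2, the heavy chain shared by several exchangers, 9.51 ± 0.24. SLC7A11, the cystine importer that pairs with SLC3A2, lay below the reference at 6.09 ± 0.16. The glial glutamate transporters SLC1A2 (3.50 ± 0.16) and SLC1A3 (3.30 ± 0.09) were the lowest of the list.

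Of 20 carriers of sugars, organic acids, vitamins and nucleosides 13 lay above the reference (65%), near the share of all genes (57.8%). SLC29A1, the equilibrative nucleoside transporter, had 10.09 ± 0.22. SLC29A4, a monoamine transporter of the same family, read 9.82, 9.06, 10.19, 10.04 and 9.93, and array 11 was the lowest. SLC2A1, the glucose transporter of most cells, had 9.52 ± 0.14, and SLC2A2, that of liver and pancreas, 2.68 ± 0.08. Metal transporters and iron storage had 18 of 20 above the reference (median 8.31), including the zinc importers SLC39A6 (10.33 ± 0.24) and SLC39A1 (10.25 ± 0.10) and TFRC, the transferrin receptor (9.83 ± 0.21). FTL, the ferritin light chain, was just under it at 6.52 ± 0.26. ABC efflux transporters had 8 of 14 above the reference (57.1%), again near the share of all genes. The multidrug transporters ABCC1 (8.90 ± 0.34) and ABCB1 (8.89 ± 0.15) were among them, whereas ABCG2 was at 2.60 ± 0.08.

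Stress genes at rest fell into high and intermediate groups. All 17 measured chaperones and folding enzymes of the endoplasmic reticulum lay above the reference, 11 in the top 25% (median 9.65), and so did 17 of 18 heat shock genes (median 9.95). For all genes these shares are 57.8% and 25%. HSPA8, the constitutive heat shock cognate protein, read 13.72, 13.85, 13.86, 13.93 and 13.77 and held rank 1. No array stood apart for it. PDIA6, a protein disulphide isomerase, had 12.25 ± 0.17, CALR, calreticulin, 12.16 ± 0.15, HSPA5, the chaperone BiP, 11.06 ± 0.20, and HSP90AA1, the inducible cytosolic HSP90, 12.60 ± 0.19. DNAJB9 (6.89 ± 0.30), ERN1, a sensor of unfolded proteins (6.83 ± 0.19), and BAG3 (6.81 ± 0.20) were only slightly above the reference, and HSPA1L (5.36 ± 0.28) was below it.

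The antioxidant genes showed a similar division. Among 24 scavengers of superoxide and peroxide 21 lay above the reference and 12 in the top 25% (median 8.33). The shares of all genes were 57.8% and 25%. GPX4, the glutathione peroxidase of membrane lipids, had 11.44 ± 0.16, PRDX6, a peroxiredoxin, 11.29 ± 0.34, and TXNIP, a thioredoxin-binding protein, 10.77 ± 0.14. SOD1, the cytosolic superoxide dismutase, read 10.12, 11.39, 10.07, 10.39 and 10.23. Array 11 was higher than the other 4, and the SD was 0.55 with it and 0.14 without it. Among 18 targets and regulators of NRF2, the factor that switches on antioxidant genes, 14 lay above the reference (77.8%, against 57.8% of all genes). GSTP1, a glutathione transferase (11.83 ± 0.21), PGD, a pentose phosphate enzyme (11.75 ± 0.12), GSR, glutathione reductase (10.01 ± 0.14), and TXNRD1, thioredoxin reductase (9.86 ± 0.14), were the highest. HMOX1, heme oxygenase, was below the reference on every array, with 6.32, 6.41, 6.20, 6.26 and 5.85.

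Genes of the ATF4 response, which answers amino acid shortage, had 19 of 21 above the reference and 7 in the top 25% (median 7.51). These shares are 90.5% and 33.3%, against 57.8% and 25% of all genes. The list holds ATF4 itself and the kinases EIF2AK3 and EIF2AK4 as well as targets of ATF4. The serine and folate enzymes PHGDH (10.92 ± 0.14), MTHFD2 (10.47 ± 0.23) and SHMT2 (10.21 ± 0.16) and asparagine synthetase ASNS (9.28 ± 0.16) led. DDIT3, the stress factor CHOP, read 6.70, 8.04, 6.50, 6.99 and 6.74, with array 11 high and array 13 below the reference. ATF3 (6.32 ± 0.19) and STC2 (5.53 ± 0.33) were below it. All 20 measured p53 targets lay above the reference, BAX (9.54 ± 0.23), MDM2 (9.39 ± 0.20), TNFRSF10B (9.15 ± 0.18) and TP53I3 (9.09 ± 0.31) highest and FAS (6.57 ± 0.23) lowest. Immediate early genes had 16 of 22 above it (72.7%, against 57.8% of all genes). Among them, DUSP6, a phosphatase of the ERK pathway, had 10.32 ± 0.13 and EGR1 7.32 ± 0.53.

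Of 20 inflammatory genes 13 lay above the reference, 7 in the top 25% and 5 in the lowest 25%, near the shares of all genes (57.8%, 25% and 25%). CCL2, the monocyte-attracting chemokine, read 11.75, 12.59, 11.95, 11.97 and 11.78 and held rank 56. NFKBIA, the inhibitor of NF-kappaB, had 10.24 ± 0.29. PTGS2, the inducible cyclooxygenase, read 9.49, 10.37, 9.48, 8.60 and 8.64. CXCL8, interleukin-8, read 6.78, 8.32, 6.36, 6.08 and 5.96, so that arrays 7 and 11 lay above the reference and the other 3 below it. Array 11 was the highest for all 3 of CCL2, PTGS2 and CXCL8. CXCL2 (2.58 ± 0.26) and IL1A (2.75 ± 0.16) were the lowest of the list. Interferon-induced and antigen presentation genes had 9 of 21 above the reference, with B2M, the light chain of class I molecules, at 8.76, 9.92, 8.49, 8.72 and 8.56, again highest on array 11.

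Genes of cell division and basic metabolism lay mostly above the reference. For comparison, 57.8% of all genes lay above it and 25% in the top 25%. Of 25 genes of G2 and mitosis 24 lay above the reference and 18 in the top 25%, and of 26 genes of G1 and DNA replication 25 and 17. CCNB1, the mitotic cyclin B1, had 11.03 ± 0.29, RRM2, a ribonucleotide reductase subunit, 12.22 ± 0.17, CCND1, cyclin D1, 11.55 ± 0.13, and CDK6, its kinase partner, 11.00 ± 0.26. CCND2, another D cyclin, lay in the lowest 25% at 3.67 ± 0.11. Glycolysis had 15 of 16 above the reference and a median of 10.28, with ENO1, enolase (13.18 ± 0.03), and LDHA, lactate dehydrogenase A (12.77 ± 0.10), at ranks 3 and 9. Every one of 24 proteasome core genes lay above the reference, PSMB4 (12.34 ± 0.25) highest. Respiratory complex I had 26 of 27 above it, complexes II to V 26 of 28, and mitochondrial ribosomal proteins 61 of 64. Genes linked to inherited Parkinson disease had 13 of 18 above the reference (72.2%, against 57.8% of all genes). Among these were EIF4G1 (10.39 ± 0.13), FBXO7 (10.16 ± 0.15) and VPS35 (9.79 ± 0.13), whereas SNCAIP, a synuclein partner, lay at 4.41 ± 0.11.

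Outside the ribosomal lists, the 15 highest means also included the actins ACTB (13.11 ± 0.08) and ACTG1 (12.89 ± 0.17), RGS5, a regulator of G protein signalling (12.99 ± 0.06, rank 5), PA2G4, a growth-regulated binding protein (12.93 ± 0.39), SSR2, a translocon subunit (12.90 ± 0.06), TMSB10, thymosin beta 10 (12.76 ± 0.17), MLLT11 (12.74 ± 0.20) and TAGLN2 (12.70 ± 0.32). The histones H2AC21 (13.33 ± 0.20), H2BC14 (12.68 ± 0.11) and H3C2 (12.57 ± 0.30) were among them with the limit given above. LGR5, a receptor of R-spondins known from stem cells of the gut, lay at 12.41 ± 0.14, rank 28, and was named after its values were seen.

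A few genes of abundant proteins lay below the reference. TUBA1B, an abundant alpha tubulin, read 1.73, 6.54, 1.75, 2.36 and 3.05, in the lowest 25% on average (3.08 ± 2.004). Array 11 was at the reference level and the other 4 were far below it. TPI1, triosephosphate isomerase of glycolysis (4.12 ± 0.21), RPS29, a ribosomal protein (3.67 ± 0.21), SDHD of complex II (2.98 ± 0.33) and ATP5PB of ATP synthase (2.72 ± 0.26) were further cases. Of 197 genes with several rows, 106 had rows that differed by over 1 log2 unit. How far the choice of probes sets the low level of a single gene was not tested.

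The spread among the 5 arrays was small for most genes. The median SD was 0.174 log2 units and 436 genes (3.06%) had an SD over 0.5. Split by level into 10 equal groups of genes, the median SD was 0.131 in the dimmest group, 0.2002 in the eighth and 0.189 in the brightest. Array medians over all rows lay between 6.85 and 6.93. Pairs of arrays correlated across genes at r of 0.991 to 0.996, except for pairs with control 11, which gave 0.980 to 0.987.

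Control 11 stood apart. Against the mean of the other 4 arrays, it was over 0.5 log2 units higher in 1866 genes (13.1%) and lower in 683 (4.80%), and over 1 unit higher in 361 (2.54%) and lower in 21 (0.148%). Control 19, the next, was over 0.5 higher in 313 genes (2.20%) and lower in 535 (3.76%). The SD of the deviations was 0.392 for control 11, 0.264 for control 19 and 0.182 to 0.214 for the others. Of the 436 genes with an SD over 0.5, 370 had their highest or lowest value on control 11, and 328 the highest. Without control 11 the median SD was 0.139, and 139 genes had an SD over 0.5.

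The deviations of control 11 ran through whole gene groups. Its complex I genes lay a median of 0.57 above the other arrays (24 of 27 higher), proteasome genes 0.55 (23 of 24), granins and processing enzymes 0.53 (11 of 12), mitochondrial ribosomal proteins 0.52 (58 of 64), scavengers 0.49 (18 of 24), complexes II to V 0.44 (25 of 28), and cytosolic ribosomal proteins and mitotic genes 0.39 each (24 of 26 and 20 of 25). The counts in brackets are of genes higher by any amount. For comparison with the medians, the median deviation of this array over all genes was 0.01. The 13.1% of all genes over 0.5 higher on it is a share at a stricter threshold than those counts. Sympathetic core factors went the other way, with a median deviation of -0.37 and 14 of 19 lower. Receptor tyrosine kinases (-0.19, 25 of 34 lower), ABC transporters (-0.19, 11 of 14) and peptide receptors (-0.13, 22 of 27) were lower as well. The labels name no batch, scan or RNA quality value for control 11, and what sets it apart was not tested.

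**Figure D5:**
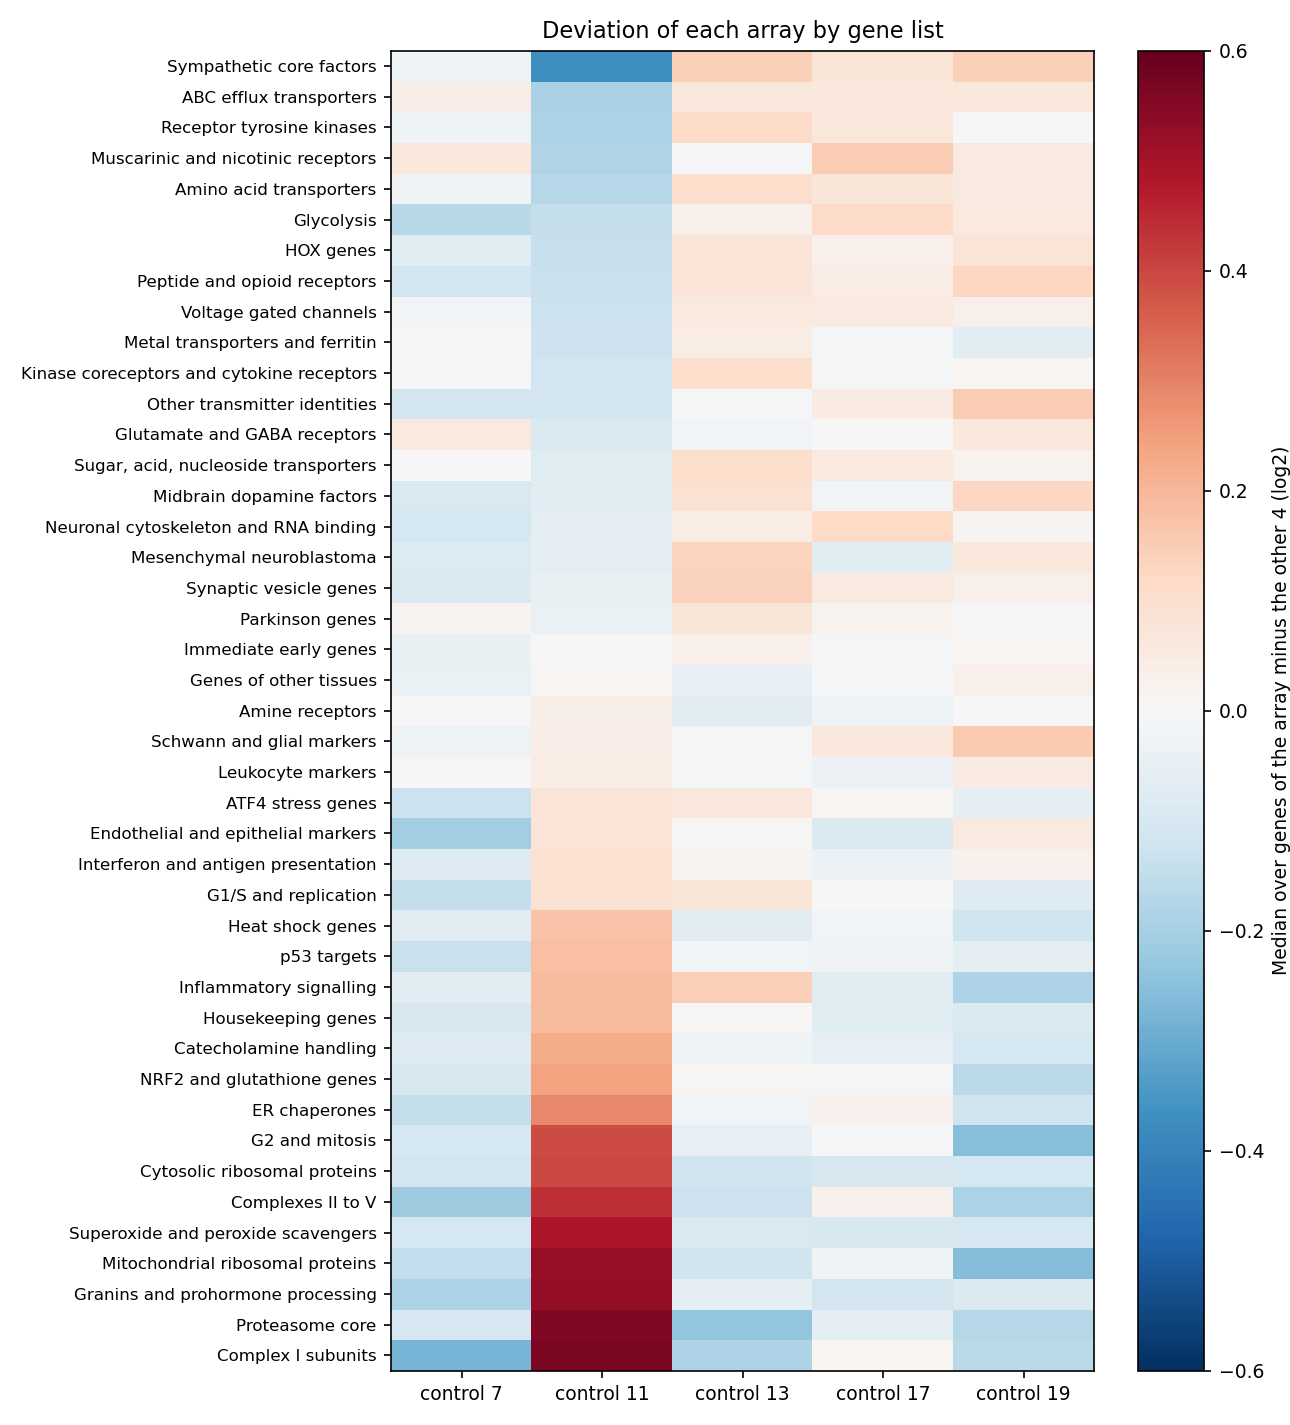
Median over the genes of each list (rows) of the deviation of an array from the mean of the other 4 (columns; colour scale in log2 units, red higher, blue lower). Control 11 is red for complex I (0.57), the proteasome (0.55) and mitochondrial ribosomal proteins (0.52) and blue for sympathetic core factors (-0.37), and the other arrays show paler colours.

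The 12 genes with the largest SD among those above the median gene all had their highest value on control 11. RPS24, a ribosomal protein, read 9.95, 11.65, 9.19, 9.65 and 9.64, an SD of 0.95. ID1 (SD 0.84) and ID2 (0.81), inhibitors of differentiation that are targets of BMP signalling, read 9.65 and 11.49 on control 11, and 7.47 to 8.42 and 9.52 to 10.43 on the other arrays. ETFRF1, ARLN, SPARCL1, TAF13, BNIP3, ND6, MRPS33, GNG11 and LUM completed the set, with SDs between 0.76 and 0.93. ND6 is the complex I subunit encoded on the light strand of mitochondrial DNA, and LUM is an extracellular matrix proteoglycan.

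Leaving out control 11, the 12 genes of largest SD among those above the median gene were others. PNN, a splicing-related protein, read 6.86, 7.27, 7.27 and 8.37 on arrays 7, 13, 17 and 19. FXR1, ZC3H13, AIFM1, PIGS, TLE3 and JAM3 were likewise highest on control 19. RPL14 was lowest there, at 7.23 against 7.90 to 8.98 on the other arrays. EGR1, an immediate early factor, was lowest on control 17 (6.48) and highest on control 13 (7.91), and H4C1, ANKRD13C-DT and BLOC1S1 completed the 12. Control 19 had lower mitochondrial ribosomal proteins (median deviation -0.26, 56 of 64 lower) and mitotic genes (-0.26, 18 of 25). Its median deviation also changed with level, from 0.06 in the dimmest of the 10 groups to -0.12 in the brightest.

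The placing of the sympathetic genes did not rest on control 11. Without it the median of the sympathetic core factors was 9.57 and that of the catecholamine genes 7.73, and with each other array left out in turn they ranged from 9.39 to 9.49 and from 7.89 to 7.93. The list medians differed between arrays, from 8.99 on control 11 to 9.61 on control 17 for the core factors and from 7.70 on control 13 to 8.56 on control 11 for the catecholamine genes.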

How the data were processed

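Total RNA of 10 SH-SY5Y samples was extracted with TRIzol and silica columns, depleted of ribosomal RNA and hybridised to Affymetrix Exon 1.0 ST arrays, per the labels' protocols. The deposited values are on a log2 scale (read from their range, 1.07 to 14.37 on the untreated arrays) and were made by the authors with RMA, as the submitters' processing notes record. This method subtracts background, equalises the distributions of arrays and summarises probes, so differences between arrays in overall brightness are removed and differences among dim rows are compressed. For the software, its version, filters and the genome build, nothing is given in the sources used here.

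Only the 5 arrays titled as untreated entered, with no further scaling. Of 22011 rows, 14432 had 1 symbol, 2408 several and 5171 none, and 14404 matched RefSeq by gene identifier. For a gene with several rows, the row with the highest mean stood. Means, SDs and percentiles were computed with Python 3.11.15 (pandas 2.3.3, numpy 2.4.6, matplotlib 3.10.9), and the quantile alternative with limma 3.58.1 under R 4.3.3. The code was tested on simulated data. There was 1 group, so no test between groups was made. Outlying arrays were marked with Dixon's 95% critical value for 5 values, 0.71, and precision is limited by the number of arrays.

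The members, the 43 gene lists (941 of 1198 genes measured, 23 in more than 1 list) and the settings were chosen with earlier results of these data known. The reference level is the 95th percentile of 59 other-tissue genes, 4 of which are also in another list. The families named by symbol and the olfactory receptor reference were chosen after the values were seen. All sympathetic and catecholamine genes are named, up to 4 highest and 2 lowest members of each other list, the 15 highest genes outside the ribosomal lists, the 12 with the largest SD with and without control 11, and some receptors, transporters and stress genes with an SD over 0.5. ALK, NTRK2, the GFRA genes, HMOX1, HOXD12, LGR5 and rows with several symbols were named after their values were seen. Alternatives were median centring, quantile normalization, each array left out, the median over arrays, the mean of all rows of a gene, no dim rows (the dimmest 1 in 3 left out), and other reference levels.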

Additional observations from a re-analysis of the deposited data

Results flagged for a closer look

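Among 5 arrays, a value was picked out when its gap to the nearest other array was over 0.71 of the whole range (Dixon's 95% critical value). Chance picks out about 1 group in 20. It held for 1320 of 14232 genes (9.27%), 869 of them on control 11. Among 307 named genes it held for 39, with 30 on control 11, 5 on control 17, 3 on control 19, 1 on control 13 and 0 on control 7. Some named genes were chosen for a large SD on these same arrays, so their count cannot be compared with the rate given by chance.

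Of 43 list medians, 6 had an outlying array. On control 11 the medians of superoxide and peroxide scavengers (8.94), mitochondrial ribosomal proteins (9.15) and cytosolic ribosomal proteins (9.25) stood high. On control 7 the medians of ABC efflux transporters (7.00) and housekeeping genes (10.17) stood high, and on control 17 that of the mesenchymal neuroblastoma list (6.14) stood low. The high medians of control 7 did not reflect a rise gene by gene. There, 18 of 21 housekeeping genes were lower than on the other arrays (median deviation -0.09). Of 14 ABC transporters 8 were higher and 6 lower (0.04).

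On control 11 the genes of respiration, the proteasome and protein folding stood high, with COX7B at 11.73, NDUFS3 at 11.07, PSMB4 at 12.78, PSMB7 at 11.60, PDIA6 at 12.55 and HSP90AA1 at 12.92. LDHB, a lactate dehydrogenase of glycolysis, stood high at 13.01, whereas 12 of 16 glycolysis genes were lower on this array than on the others (median deviation -0.14). The antioxidant enzymes SOD1 (11.39) and PRDX6 (11.88) were high there too. Secreted and surface proteins that stood high on it were CCL2 (12.59), GAL (11.26), B2M (9.92), LUM (9.30), BDKRB1 (8.19) and CHRNA5 (9.61). The catecholamine genes QDPR (8.45) and PNMT (6.04) did so as well, and PNMT stayed below the reference. The remaining high genes of control 11 were GNG11 (10.34), ARLN (9.62), TP53I3 (9.63), NDC80 (8.12) and TUBA1B (6.54).

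Low on control 11 were the transcription factors TFAP2B (9.53), INSM2 (9.37) and MYC (8.64), the receptors IGF1R (9.79) and CCKAR (7.78), the channel subunit CACNA2D2 (9.69), the glycine transporter SLC6A9 (6.89) and SOD3 (4.79), the extracellular superoxide dismutase.

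The other arrays gave few such values. The noradrenaline transporter SLC6A2 was high on control 13 (9.79). On control 17 TNNI3 was high (7.44), and ABCB11 (2.44), FOXD3 (5.53), SLC17A6 (2.41) and SLC1A3 (3.14) were low, all below the reference. On control 19 JAM3 (9.06) and ZC3H13 (8.57) were high and VPS35 (9.56) was low. What sets any of these arrays apart was not tested.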

How the results depend on the processing

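No paired analysis was possible because the report covers 1 group, and the groups of the series share no replicate numbers. Median centring, quantile normalization and the median over arrays moved 0 list medians or counts beyond the limits set for them. The limits were 1 SD over arrays for a level and 1.5 times for a count. The reference level ran from 6.44 to 6.60 with each array left out, and 8127 to 8343 genes lay above it. It was 6.28 from the 90th percentile (8632 genes), 4.80 from olfactory receptors (10915 genes) and 7.48 without dim rows (the dimmest 1 in 3). The median SD ran from 0.139 to 0.184 with each array left out. Leaving out single arrays gave 1 to 2 leukocyte markers above the reference.

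With the mean of all rows of a gene, the median of synaptic genes was 6.58 and that of mitotic genes 8.9995, and FN1, RPL41 and RPS25 read 8.12, 3.70 and 9.84. At the 90th percentile 1 midbrain factor lay above the reference. With the olfactory reference the counts above it were other transmitters 7, midbrain 7, mesenchymal 20, glial 6, muscarinic and nicotinic 12, amine 14, glutamate and GABA 13, peptide 19, channels 25, interferon 16, HOX 12, leukocyte 6, and endothelial and epithelial 6.

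Without dim rows, fewer genes entered each list, and the medians became catecholamine 8.35, synaptic 7.04, other transmitters 7.39, midbrain 6.06, mesenchymal 8.15, glial 5.87, receptor tyrosine kinases 8.22, coreceptors 7.42, muscarinic and nicotinic 9.08, amine 6.35, glutamate and GABA 7.07, peptide 6.77, amino acid transporters 8.46, sugar carriers 8.14, ABC 7.75, channels 6.76, NRF2 8.65, scavengers 8.71, immediate early 7.47, inflammatory 8.47, interferon 7.05, HOX 6.95, leukocyte 6.44, endothelial and epithelial 7.00, and other tissues 6.43. Counts above the higher reference were synaptic 5, other transmitters 1, coreceptors 8, amine 2, glutamate and GABA 1, peptide 4, sugar carriers 8, channels 7, ATF4 11, immediate early 10, inflammatory 8, interferon 5, HOX 2 and leukocyte 1. Top-quarter counts were granins 3, amine 0, ABC 0, p53 4, immediate early 4 and interferon 1.

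The number of arrays, the absence of detection calls and the unknown binding strength of probes limit what a level shows. Whether a gene near the reference lies above it depends on which genes set it: TH lies below it in the main setting and above it with the 90th percentile and with olfactory receptors.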

Other observations

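Several genes of interest lie on rows annotated to more than 1 symbol and were kept out of the lists. The row of NFE2L2, the factor NRF2, with MIR3128 had 10.02 ± 0.21, that of NQO1 with NFAT5 9.06 ± 0.42, and that of SOD2, the mitochondrial superoxide dismutase, with SOD2-OT1 8.97 ± 0.42. The row of TUBB3, a neuronal beta tubulin, with MC1R, TUBB7P, TUBB8 and TUBBP5 had 9.65 ± 0.14, and that of PDGFRA with FIP1L1 9.27 ± 0.14. NQO1 with NFAT5 read 8.88, 9.76, 8.80, 9.10 and 8.74 on arrays 7, 11, 13, 17 and 19, and SOD2 with SOD2-OT1 read 9.10, 9.62, 8.95, 8.63 and 8.57. Both were highest on control 11.

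Among 26 measured cytosolic ribosomal proteins of 77 listed, 22 lay above the reference and 14 in the top 25%. For all genes these shares are 57.8% and 25%. RPL18 (12.63 ± 0.21), RPS25 (12.24 ± 0.30), RPL8 (12.06 ± 0.18) and RPS6 (10.99 ± 0.12) were highest. The nuclear long non-coding RNA MALAT1 read 12.36, 12.73, 12.09, 12.01 and 12.35, at rank 31.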
